A study of Sus scrofa with 6 samples.

Results

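The enzymes that write, copy and erase DNA methylation, together with the GADD45 stress factors, were examined in longissimus dorsi muscle, the long muscle of the back, of 6 healthy female Tibetan pigs. The low altitude group was 3 pigs kept under experimental conditions with daily feeding on the Chengdu plain, at an average of 500 m, descended from Tibetan pigs held in the lowland for several generations. The high altitude group was 3 free-ranging pigs of the highland, at an average of 4000 m. No treatment or engineered allele was given to either group, each library came from 1 animal, and altitude, husbandry, place and line history differed together, so their parts cannot be told apart. The members were chosen by name: 10 symbols were looked up among the 25322 Ensembl pig gene IDs of the FPKM table, and 7 had a row. These were DNMT1 (ENSSSCG00000013659), DNMT3A (ENSSSCG00000029413), DNMT3B (ENSSSCG00000007252), UHRF1 (ENSSSCG00000013517), TET1 (ENSSSCG00000010241), TET3 (ENSSSCG00000008292) and GADD45B (ENSSSCG00000022689). TET2, GADD45A and GADD45G matched no row by their current Ensembl ID and were not analysed here.

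DNA methyltransferases add a methyl group to cytosine, mostly where a guanine follows it. DNMT3A and DNMT3B set new marks, while UHRF1 brings DNMT1 to freshly copied DNA, where it restores the marks of the old strand. TET enzymes oxidise methylcytosine, using oxygen and 2-oxoglutarate, and base excision repair can then replace the oxidised base with plain cytosine. GADD45 proteins are small acidic proteins without enzyme activity that are induced by stress, bind the kinase MAP3K4 and the clamp PCNA, and have been linked to repair-based loss of methylation. In adult muscle most nuclei belong to fibres that no longer divide.

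FPKM, in which fragments are divided by gene length and by the mapped total, allows levels of different genes to be compared. Its total per library was 506611 to 566907 at low and 526368 to 571855 at high altitude, and 9683 to 9960 genes at low and 9278 to 10100 at high altitude reached an FPKM of 1. Absolute depth is unknown, and relative depth, read from how low values are spaced, was 0.862 to 0.997 at low and 0.868 to 1.22 at high altitude. High altitude library 1 stood apart on the first principal component, which held 31.5% of the variance (score 38.2, against −10.9 to 7.75 at low altitude and −20.3 and −15.2 in the other high altitude libraries). A listed 0 is not proof of absence, since 107 genes combined a 0 in some library with 5 FPKM or more elsewhere, among them ACTA1, the skeletal muscle actin. Of 11 skeletal muscle markers looked up, 2 had a row, ACTA1 and the fast myosin light chain MYL1, and MYL1 was at 10100.3 to 10597 FPKM at low and at 10408 to 11850.2 at high altitude.

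GADD45B was the most abundant member at low altitude and the only one whose groups did not overlap. The methyltransferase order was the same in each library, with DNMT3A highest, DNMT1 next and DNMT3B low, and TET1 and TET3 were at or below the 24.0th percentile of detected genes. In limma with Benjamini-Hochberg adjustment over the 10005 genes that reached 1 FPKM in 3 or more libraries, 0 of the 3 members that passed this filter (DNMT1, DNMT3A and GADD45B) changed at an adjusted p under 0.05, where 0.23% of all tested genes did. At an unadjusted p under 0.05, GADD45B was the 1 member, where 9.42% of all tested genes passed. GADD45B was also the 1 of the 3 without overlap between groups, where 16.1% of all tested genes did not.

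**Figure D1:**
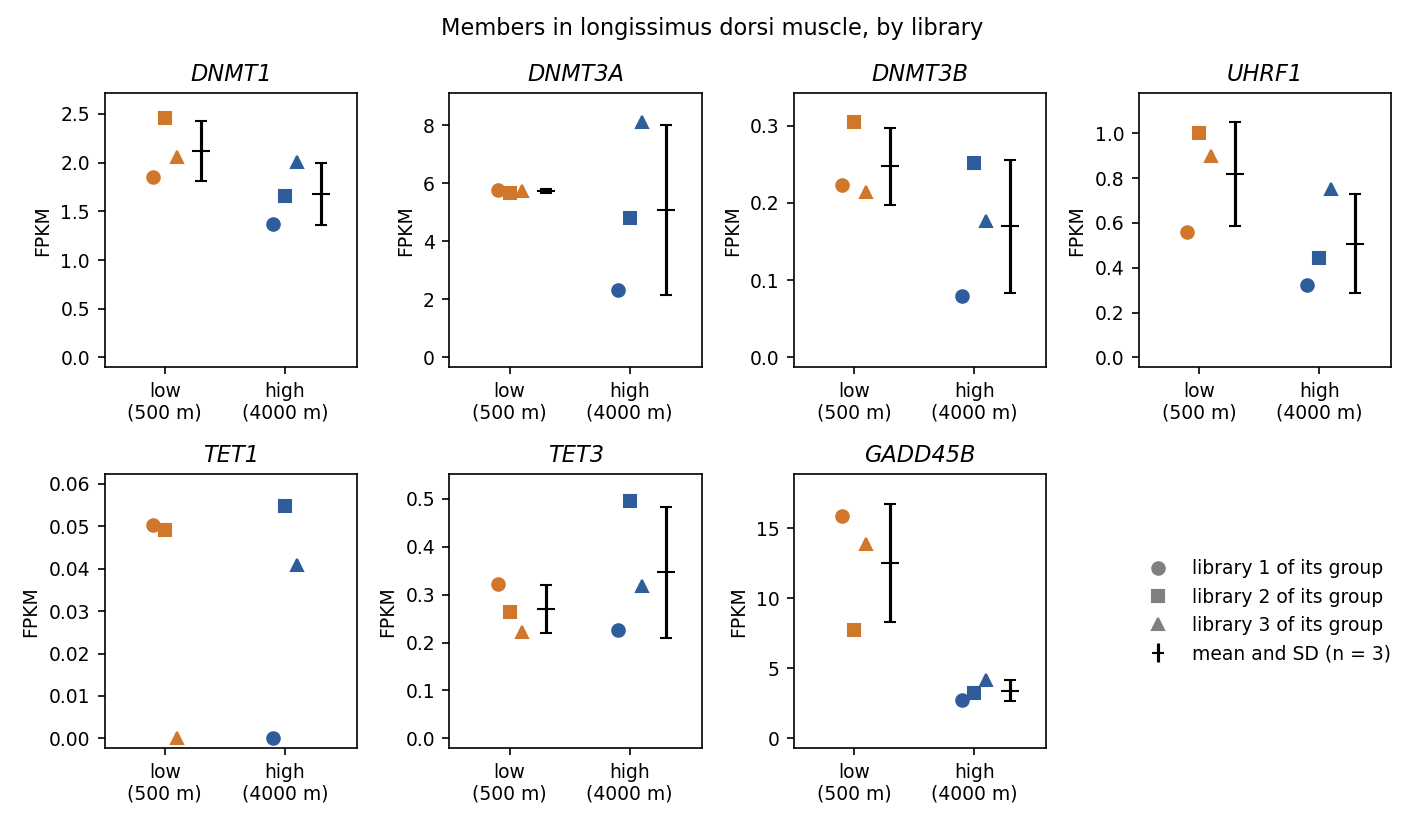
FPKM (vertical axes, starting at 0) of the 7 members with a row, in low altitude (left of each panel) and high altitude libraries. Each point is 1 animal, its shape gives the library number within its group, and the bar is the mean and SD of 3 libraries, left out for TET1, which is listed at 0 in 2 libraries. The 3 low altitude points of GADD45B lie above its 3 high altitude points, and the groups overlap for the other 6.

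DNMT3A, the main methyltransferase for new marks in differentiated tissue, was at 5.78, 5.65 and 5.75 FPKM in the low altitude libraries and at 2.31, 4.82 and 8.12 in the high altitude libraries. The low altitude values were nearly equal and lay inside the high altitude range, whose lowest value was library 1 and whose highest was library 3. Its mean was 5.73 ± 0.0676 FPKM at low and 5.08 ± 2.92 at high altitude (SD, n = 3 each). On the log2(FPKM + 1) scale, where changes of weakly expressed genes are compressed, the log2 fold change of low minus high altitude was 0.26 (SE 0.34, 95% interval −0.53 to 1.06, limma with Benjamini-Hochberg adjusted p = 0.853). Without high altitude library 1 the estimate turned to −0.12, so its sign rested on that library. DNMT3A lay between the 69.7th and 71.0th percentile of detected genes at low altitude and between the 54.6th and 76.9th at high altitude. In bulk muscle, fewer cells of a type and less RNA per cell cannot be told apart, here and in all that follows.

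DNMT1, which copies methylation at replication, was at 1.85, 2.46 and 2.06 FPKM at low altitude and at 1.37, 1.66 and 2.0 at high altitude. The 2 highest values were from low altitude, but library 1 of that group lay below high altitude library 3. Its mean was 2.12 ± 0.308 FPKM at low and 1.68 ± 0.316 at high altitude (SD, n = 3 each), and its log2 fold change was 0.22 (SE 0.15, 95% interval −0.12 to 0.57, limma with Benjamini-Hochberg adjusted p = 0.687). It was 0.14 if high altitude library 1 was left out and 0.15 if low altitude library 2 was. UHRF1, its partner at the replication fork, was at 0.559, 1.0 and 0.898 FPKM at low altitude and at 0.323, 0.445 and 0.753 at high altitude. UHRF1 reached an FPKM of 1 in 1 library only, so it did not enter the filtered test. In the fit with no filter, over 17070 genes, its log2 fold change was 0.27 (SE 0.15, 95% interval −0.09 to 0.63, limma with Benjamini-Hochberg adjusted p = 0.694), and 0.0351% of all genes in that fit passed an adjusted p of 0.05. At an unadjusted p under 0.05, 0 of the 4 members below the filter passed in it, where 8.08% of all genes did, and 0 of the 4 had groups without overlap, where 13.3% did.

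DNMT1 and UHRF1 placed the 6 libraries in the same order, and so did the summed level of markers of cycling cells. From lowest to highest the libraries were high altitude 1, high altitude 2, low altitude 1, high altitude 3, low altitude 3 and low altitude 2. The summed level of the cycling markers was 4.34, 8.32 and 5.83 FPKM at low altitude and 3.49, 4.05 and 5.54 at high altitude. Of 16 markers looked up, 8 had a row (BUB1, CCNB1, CDK1, MCM2, MCM3, MCM4, MCM5 and TOP2A), 0 were at 0 in every library, and BUB1, a mitotic checkpoint kinase, was listed at 0 in high altitude library 2. Only 3 of the 8 passed the filter on low values. By single gene, 2 of the 8 markers, TOP2A and MCM4, had this order. The share of all genes with this order was not computed. TOP2A, the topoisomerase of dividing cells, was at 1.07, 1.67 and 1.16 FPKM at low altitude and at 0.647, 0.729 and 1.09 at high altitude. MCM5, a subunit of the replication helicase, ordered them otherwise, at 0.133, 0.681 and 0.351 FPKM at low altitude and at 0.591, 0.307 and 0.554 at high altitude. The mitotic kinase CDK1 was at 0.543, 1.19 and 1.03 FPKM at low altitude and at 0.579, 1.19 and 0.816 at high altitude. The part of cycling cells in the levels of DNMT1 and UHRF1 was not tested. DNMT3A and DNMT3B ordered the libraries otherwise.

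**Figure D2:**
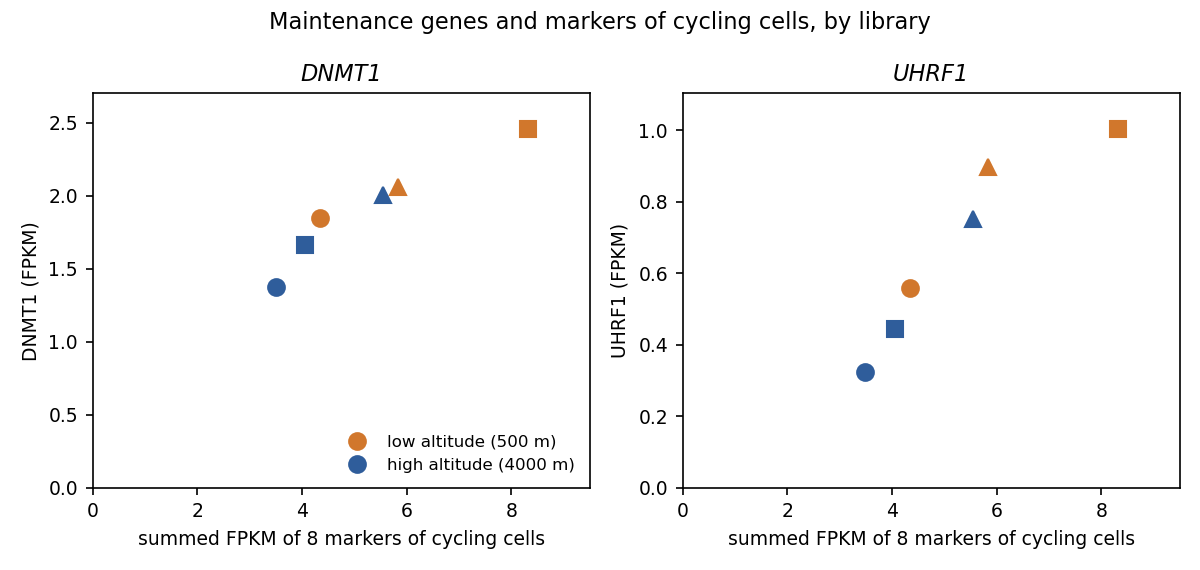
FPKM of DNMT1 (left) and UHRF1 (right) against the summed FPKM of 8 markers of cycling cells, with all axes starting at 0. Each point is 1 library, coloured by group, with its shape giving the library number as circle, square and triangle for 1, 2 and 3. Both genes order the libraries as the summed markers do, with high altitude library 1 lowest and low altitude library 2 highest.

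DNMT3B, the methyltransferase for new marks that is best known from early embryos, was at 0.223, 0.305 and 0.214 FPKM at low altitude and at 0.0796, 0.252 and 0.177 at high altitude. The groups overlapped, with high altitude library 2 above low altitude libraries 1 and 3. In the fit with no filter its log2 fold change was 0.09 (95% interval −0.07 to 0.26, limma with Benjamini-Hochberg adjusted p = 0.772). The level of DNMT3A was 25.9, 18.5 and 26.9 times that of DNMT3B in the low altitude libraries and 29.0, 19.1 and 45.9 times in the high altitude libraries. It was 3.13, 2.30 and 2.79 times that of DNMT1 at low altitude and 1.68, 2.90 and 4.05 times at high altitude.

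Shares within the family do not depend on the scaling between libraries. DNMT3A made up 73.6, 67.2 and 71.6% of the summed FPKM of the 3 methyltransferases at low altitude and 61.4, 71.6 and 78.8% at high altitude. DNMT1 made up 23.5, 29.2 and 25.7% at low altitude and 36.5, 24.7 and 19.4% at high altitude. The lowest share of DNMT3A and the highest of DNMT1 were both in high altitude library 1. The mean share differed between low and high altitude by 0.224 percentage points for DNMT3A, −0.742 for DNMT1 and 0.517 for DNMT3B. Two-sided exact permutation tests over the 20 assignments of the libraries gave p = 0.9, 0.9 and 0.5, each 0.9 after Benjamini-Hochberg adjustment over the 4 shares computed, in a design whose smallest p is 0.1.

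**Figure D3:**
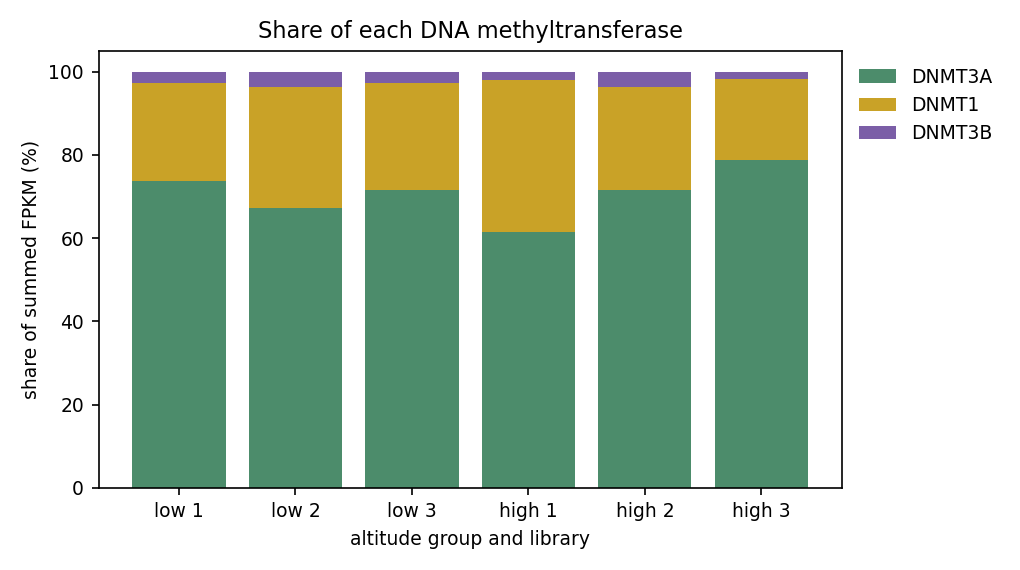
Share of DNMT3A, DNMT1 and DNMT3B in their summed FPKM (vertical axis, percent), in the 3 low altitude libraries on the left and the 3 high altitude libraries on the right. DNMT3A holds between 61.4 and 78.8% in each library, and both ends of that range are high altitude libraries.

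TET3, which oxidises methylcytosine in many somatic tissues, was at 0.323, 0.264 and 0.222 FPKM at low altitude and at 0.227, 0.496 and 0.319 at high altitude. The highest value was high altitude library 2, and the other libraries of the groups were interleaved. In the fit with no filter the log2 fold change was −0.08 (95% interval −0.29 to 0.12, limma with Benjamini-Hochberg adjusted p = 0.815). TET1, the family member first known for its activity in embryonic stem cells, was at 0.0503 and 0.0491 FPKM in low altitude libraries 1 and 2 and listed at 0 in library 3. At high altitude it was at 0.0549 and 0.0408 in libraries 2 and 3 and listed at 0 in library 1. Multiplied by the relative depth of the library, the 4 values above 0 were 0.0484 and 0.0489 at low and 0.0476 and 0.0498 at high altitude, within 4.51% of each other. TET1 thus took 2 levels at this depth, 0 and 1 common level, and no difference between the groups was detectable. TET3 held 86.5, 84.3 and 100% of the summed FPKM of TET1 and TET3 at low altitude and 100, 90.0 and 88.7% at high altitude (two-sided exact permutation p = 0.6, adjusted 0.9), where 100% stands for the libraries with TET1 at 0. As TET1 took only 2 levels, with 1 library at 0 in each group, this test cannot decide on the balance of TET1 and TET3.

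GADD45B, a stress-induced member of the GADD45 family that activates the p38 kinase pathway through MAP3K4, was at 15.9, 7.76 and 13.9 FPKM at low altitude and at 2.74, 3.25 and 4.19 at high altitude. The lowest low altitude value, library 2, was above the highest high altitude value, library 3. Its mean was 12.5 ± 4.22 FPKM at low and 3.40 ± 0.736 at high altitude (SD, n = 3 each), a ratio of means of 3.68. The log2 fold change was 1.58 (SE 0.27, 95% interval 0.95 to 2.2), with an unadjusted p of 0.000525 in limma and a Benjamini-Hochberg adjusted p of 0.115, which missed the threshold of 0.05. By unadjusted p it stood at place 43 of the 10005 tested genes. GADD45B lay between the 75.5th and 86.5th percentile of detected genes at low altitude and between the 58.6th and 64.1st at high altitude. Without low altitude library 2, the lowest of its group, the log2 fold change was 1.86 and passed (limma, Benjamini-Hochberg adjusted p = 0.0482). In the other 16 alternatives the adjusted p was above 0.05 and the estimate stayed between 1.39 and 1.81.

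**Figure D4:**
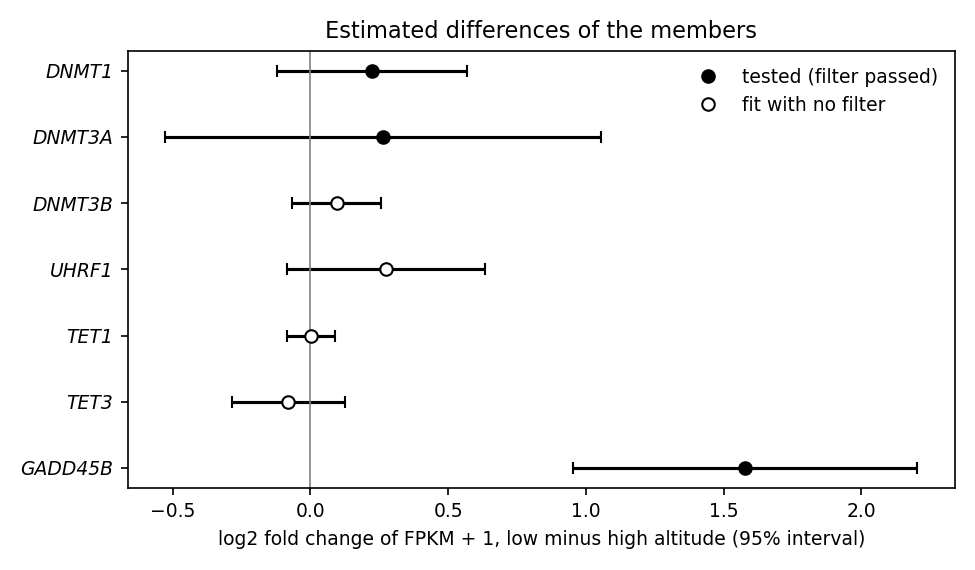
Log2 fold change of FPKM + 1, low minus high altitude, with its 95% interval from limma, for the 7 members with a row. Filled points passed the filter on low values and open points come from the fit with no filter. The interval of GADD45B, 0.95 to 2.2, lies above 0 before any adjustment over genes, and the other 6 intervals include 0.

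Among kinase genes around GADD45B, MAP3K4, MAP2K6 and MAP2K7 had all low altitude values above all high altitude values. The groups overlapped for MAPK14 (p38) and MAPK8 (JNK), the kinases on which these kinases act. For MAP3K4 the margin was narrow, with its lowest low altitude value at 2.48 FPKM and its highest high altitude value at 2.46. The list of GADD45 partners and stress inducers had 9 tested genes. Of these, 0 passed over all genes in limma with Benjamini-Hochberg adjustment, where 0.23% of all tested genes did. At an unadjusted p under 0.05, 3 of the 9 passed, where 9.42% of all tested genes did, and 4 had groups without overlap, where 16.1% of all tested genes did. The list had a median log2 fold change of 0.29, beside 0.04 over all tested genes. This and the other lists were chosen with earlier results of these data known, so their counts and medians only describe them. MAP2K6, the kinase that activates p38 below MAP3K4, was at 4.87, 4.82 and 4.82 FPKM at low altitude and at 2.45, 2.69 and 2.82 at high altitude (log2 fold change 0.68, SE 0.12, limma with Benjamini-Hochberg adjusted p = 0.122). The spread within each group was small next to the gap between them. MAP2K7, a JNK pathway kinase that GADD45B binds and inhibits, was at 14.3, 11.7 and 15.0 FPKM at low altitude and at 9.0, 9.13 and 10.4 at high altitude (0.48, limma with Benjamini-Hochberg adjusted p = 0.377). PPP1R15A, also called GADD34, which directs a phosphatase to the translation factor eIF2α and is not a GADD45 paralog, was at 9.46, 12.1 and 22.8 FPKM at low altitude and at 3.48, 6.52 and 5.30 at high altitude (1.32, limma with Benjamini-Hochberg adjusted p = 0.302). MAP3K4 itself, named after its values were seen, was at 3.61, 2.48 and 3.21 FPKM at low and 2.46, 2.14 and 2.39 at high altitude (limma with Benjamini-Hochberg adjusted p = 0.592). MAPK14 was at 15.7, 20.3 and 16.9 FPKM at low and at 18.2, 18.3 and 20.03 at high altitude, and MAPK8 at 1.53, 1.75 and 1.62 at low and at 1.84, 1.43 and 2.03 at high altitude (log2 fold change −0.10 and −0.07, limma with Benjamini-Hochberg adjusted p = 0.879 and 0.917). They too were named once their values were known. The cell cycle inhibitor CDKN1A was listed at 0 in each library.

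Of the base excision repair genes, which act after TET oxidation, 10 of 11 had a row and 9 were tested. In limma with Benjamini-Hochberg adjustment 0 passed over all genes, where 0.23% of all tested genes did. At an unadjusted p under 0.05, 1 passed, NEIL2, where 9.42% of all tested genes did, and 5 had groups without overlap, where 16.1% did. Of these 5, 4 had the low altitude values on top, and NEIL2 had the high altitude values on top. The list's median log2 fold change was 0.25, beside 0.04 over all tested genes. These values too only describe a list chosen with earlier results known. NEIL2, a glycosylase for oxidised bases, was at 0.471, 0.952 and 0.518 FPKM at low altitude and at 1.03, 1.06 and 1.69 at high altitude (log2 fold change −0.46, limma with Benjamini-Hochberg adjusted p = 0.487). Its relative NEIL1 was at 1.62, 1.71 and 2.57 at low and at 1.12, 1.51 and 1.54 at high altitude (0.30, limma with Benjamini-Hochberg adjusted p = 0.620; 0.16 without low altitude library 3). These 2 glycosylases lay on opposite sides, each without overlap, and NEIL2 passed the filter only through its high altitude libraries. UNG, which removes uracil, was at 3.57, 2.84 and 3.52 FPKM at low and at 2.06, 2.68 and 2.72 at high altitude (0.31, limma with Benjamini-Hochberg adjusted p = 0.570). TDG, the glycosylase that cuts out the products of TET oxidation (named once its values were known), was at 2.50, 2.97 and 2.40 FPKM at low and at 1.61, 1.96 and 2.62 at high altitude, with overlap.

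Methyl-CpG readers, the proteins that bind methylated DNA, had 6 tested genes, 0 past the threshold over all genes in limma and 0 at an unadjusted p under 0.05. Of all tested genes, 0.23% and 9.42% passed these. Groups without overlap were found for 0 of the 6, where 16.1% of all tested genes had them. The readers' median log2 fold change was 0.04, the same as over all tested genes to this precision. MBD3, a subunit of the NuRD repressor complex and the most abundant reader (named after its values were seen), was at 58.2, 48.2 and 47.8 FPKM at low and at 35.3, 42.1 and 62.1 at high altitude. MBD2 was at 7.07, 7.96 and 7.16 FPKM at low and at 6.83, 11.2 and 9.54 at high altitude (log2 fold change −0.26, limma with Benjamini-Hochberg adjusted p = 0.707). For MBD1 and MBD6 the estimates were 0.13 and −0.19 (limma with Benjamini-Hochberg adjusted p = 0.832 and 0.754). With a library left out, the 3 estimates moved by over 1.5 times: MBD2 was at −0.43 without high altitude library 1 and −0.12 without high altitude library 2, MBD1 at 0.012 and 0.23 without the same libraries, and MBD6 at −0.29 without low altitude library 2 and −0.05 if library 3 of that group was omitted.

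Among partners of the methyltransferases, 8 of 11 had a row and 4 were tested. Of these, 0 passed the threshold in limma with Benjamini-Hochberg adjustment and 0 an unadjusted p under 0.05, where 0.23% and 9.42% of all tested genes did. Groups did not overlap for 2 of the 4, USP7 and SETDB1, where 16.1% of all tested genes had no overlap. Their median log2 fold change was 0.13, beside 0.04 over all tested genes. USP7, which protects DNMT1 and UHRF1 from breakdown, was at 16.9, 18.1 and 17.9 FPKM at low and at 14.3, 16.9 and 16.1 at high altitude, without overlap by a narrow margin (log2 fold change 0.16, limma with Benjamini-Hochberg adjusted p = 0.746). The histone methyltransferase SETDB1 was at 1.82, 2.0 and 1.85 FPKM at low and at 1.70, 1.73 and 1.64 at high altitude, without overlap, and the deacetylase HDAC2 at 13.2, 11.9 and 11.3 at low and at 9.71, 10.7 and 11.6 at high altitude (0.10 and 0.16, limma with Benjamini-Hochberg adjusted p = 0.826 and 0.748). Without high altitude library 1 the estimates of USP7 and HDAC2 were 0.09 and 0.10, and without low altitude library 1 that of HDAC2 was 0.11. UHRF2 and HDAC1 were listed at 0 in each library, and DNMT3L, a cofactor of DNMT3A in germ cells, was listed at 0 in each low altitude library and at 0.0349, 0 and 0.0314 FPKM at high altitude.

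Transcripts were also read for enzymes linked to 2-oxoglutarate and TET and for enzymes of the methyl donor cycle. In limma, 0 of 4 and 0 of 11 tested genes passed over all genes, where 0.23% of all tested genes did. At an unadjusted p under 0.05 it was also 0 of 4 and 0 of 11, where 9.42% of all tested genes passed. In both lists 0 tested genes had groups without overlap, where 16.1% of all tested genes did. Their median log2 fold changes were −0.10 and 0.10, beside 0.04 over all tested genes. IDH1, the cytosolic enzyme that makes 2-oxoglutarate, was at 6.92, 6.60 and 4.70 FPKM at low and at 6.03, 8.91 and 13.3 at high altitude (log2 fold change −0.51, limma with Benjamini-Hochberg adjusted p = 0.608; −0.25 without high altitude library 3). OGT, a sugar transferase that binds TET enzymes, was at 68.2, 51.9 and 61.7 at low and at 46.2, 79.8 and 66.5 at high altitude. MAT2A, which makes the methyl donor S-adenosylmethionine outside the liver (named once its values were known), was at 37.6, 54.1 and 58.5 FPKM at low and at 34.0, 48.7 and 47.4 at high altitude. AHCYL1, a relative of the enzyme that clears S-adenosylhomocysteine, was at 18.2, 14.0 and 12.3 at low and at 7.99, 9.23 and 15.4 at high altitude (0.45, limma with Benjamini-Hochberg adjusted p = 0.638). Its estimate was 0.27 without high altitude library 1 and 0.71 without high altitude library 3. The methionine synthase MTR and its reductase MTRR had estimates of 0.21 and −0.16 (limma with Benjamini-Hochberg adjusted p = 0.732 and 0.770). These moved to 0.07 and −0.08 without low altitude library 3 and to 0.33 and −0.24 with library 2 of that group omitted, and MTRR to −0.09 without high altitude library 3. Over the 6 lists, 54 of 75 genes had a row, 43 were tested and 0 passed, where 0.23% of all tested genes did. At an unadjusted p under 0.05 in limma, 4 of the 43 passed, near the 9.42% of all tested genes. Groups did not overlap for 11 of the 43 (25.6%), where 16.1% of all tested genes had no overlap. The median log2 fold change of the 43 was 0.06, beside 0.04 over all tested genes.

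**Figure D5:**
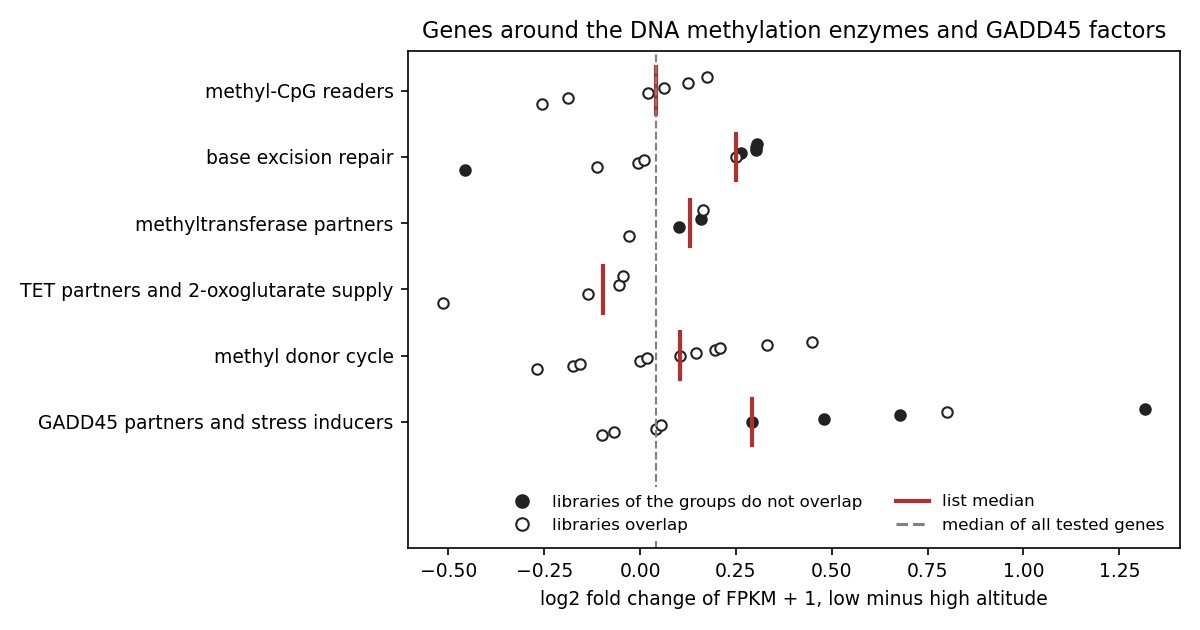
Log2 fold change of FPKM + 1, low minus high altitude, for the tested genes of the 6 lists around the members. Each point is 1 gene, filled where its low and high altitude libraries do not overlap; the red bar is the list's median and the dashed line the median of all tested genes, 0.04. The rightmost point is PPP1R15A at 1.32.

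Over the 6 libraries, the gene with the highest Pearson r to each tested member was sought among 3203 tested genes with a symbol and a mean FPKM of at least 5, as a description in which the points share library and group. GADD45B was most like XAB2, a splicing and repair protein (r = 0.991), at 6.25, 5.40 and 6.42 FPKM at low and at 3.77, 4.02 and 4.40 at high altitude. DNMT3A was most like SEC23IP, a protein of endoplasmic reticulum exit sites (r = 0.996), at 7.03, 7.15 and 7.10 at low and at 5.89, 6.76 and 7.67 at high altitude. DNMT1 was most like KLHDC2, a substrate receptor of a ubiquitin ligase (r = 0.992). With 6 libraries such values are common, since 107, 163 and 95 of the candidates exceeded an r of 0.9 with GADD45B, DNMT3A and DNMT1.

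The summed markers of each other cell type that muscle holds overlapped between the groups. Of the 22 single markers with a row, 3 did not, near the 13.3% of all genes in the fit with no filter. KDR, an endothelial receptor for VEGF, was at 1.90, 4.75 and 1.97 FPKM at low and at 5.74, 7.69 and 7.22 at high altitude. The low altitude values were on top for CD14, a monocyte receptor (3.15, 3.29 and 5.31 FPKM at low and 2.65, 2.77 and 3.03 at high altitude). They were also on top for MYF5, a regulator of muscle precursors (1.20, 1.35 and 2.11 at low and 1.09, 0.802 and 0.601 at high altitude). None of the 3 passed over all genes (limma with Benjamini-Hochberg adjusted p = 0.303, 0.620 and 0.481). The other tested markers of their lists did not all share their direction. Log2 fold changes were 0.21 for endothelial PECAM1 and −0.15 for TEK, beside −1.09 for KDR. Among leukocyte markers they were −0.24 for PTPRC, −0.36 for CD8A and 0.02 for CD68, beside 0.34 for CD14. Among satellite cell markers they were −0.42 for MYOD1 and −0.01 for CDH15, beside 0.47 for MYF5. Summed fibroblast and matrix markers, 5 of 6 with a row, ranged from 688 to 1067 FPKM at low and from 246 to 958 at high altitude. High altitude library 1 was lowest for them and for DNMT1, DNMT3A, DNMT3B, UHRF1 and GADD45B. That library was also lowest for summed endothelial, adipocyte, erythroid and cycling markers, and highest for satellite cell markers. For leukocyte markers it was neither. Leukocyte markers, 7 of 9 with a row, ranged from 8.68 to 16.9 at low and from 11.7 to 12.2 at high altitude, and endothelial markers, 3 of 6, from 35.2 to 49.8 at low and from 28.6 to 48.2 at high altitude. Satellite cell markers, 3 of 4, ranged from 14.8 to 20.6 at low and from 18.9 to 27.3 at high altitude. Adipocyte markers, 2 of 5, ranged from 4.52 to 12.4 at low and from 3.88 to 22.0 at high altitude, and erythroid markers, 2 of 4, from 57.4 to 116.7 at low and from 57.0 to 163.1 at high altitude. In these lists 0 markers were at 0 in every library, and the part of each cell type in the members' levels was not tested. Without high altitude library 1 the log2 fold change of GADD45B was 1.47 (limma with Benjamini-Hochberg adjusted p = 0.161) and that of DNMT1 0.14.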

How the data were processed

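RNA of longissimus dorsi muscle from 6 pigs was sequenced, with 1 strand-specific dUTP TruSeq library per animal, per the labels' protocols. The submitters' processing notes list Cufflinks 2.2.1 and TopHat2 2.0.11 without saying what each did. Build, annotation release and any filtering of genes were not given in the sources, and coordinates are left out for that reason. The authors deposited FPKM values for 25322 Ensembl pig gene IDs, without counts, which leaves absolute depth unknown and calls for a test on a log scale. Symbols were matched through a table of current gene IDs, which named 11804 of the 25322 IDs.

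The 10005 genes that reached 1 FPKM in 3 or more libraries were tested as log2(FPKM + 1), low minus high altitude, with limma 3.58.1 in R 4.3.3 (empirical Bayes with trend, two-sided, Benjamini-Hochberg over all tested genes, threshold 0.05). The fit was tested on simulated data. Relative depth came from the commonest ratio, between libraries, of values under an FPKM of 0.15. Shares were compared by exact permutation. They were planned for 9 members of 3 families, and 4 were computed: 3 members had no row, GADD45B was then alone in its family, and the share of TET1 is the remainder of that of TET3. Lists are described by counts and medians, with no set test. All members are named, with 3 genes per surrounding list by unadjusted p and the gene most alike to each tested member. The values of 1 gene that this rule names are not reported here. The members and lists were chosen with earlier results of these data known. Alternatives changed the pseudocount (0.1, 0.5), the filter (none, or a mean FPKM of 5), the scaling (common total, median of ratios, quantile), the variance model (no trend, robust, array weights), the replicate block and the libraries, leaving out each in turn. Figures were drawn with matplotlib 3.10.9.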

Additional observations from a re-analysis of the deposited data

How the results depend on the processing

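The number of members that passed the adjusted threshold was 0 in 16 of 17 alternatives and ranged from 0 to 1 when libraries were left out, the 1 being GADD45B when low altitude library 2 was omitted (1.86 on the log2 scale, limma with Benjamini-Hochberg adjusted p = 0.0482, against 0.0571 to 0.385 in its other alternatives). Genes of the surrounding lists passed in 0 of the 17. Over all genes, the count of 23 was 6 with no filter, 10 with quantile normalization, 9 with scaling by median of ratios, 38 with array weights, and 11, 4, 6 and 4 without high altitude library 2, high altitude library 3, low altitude library 1 and low altitude library 3. Of 347 values for 21 single genes, 342 kept their direction and side of the threshold and 4 turned. With a library left out, the estimate of 14 of the 21 moved by over 1.5 times, and that of GADD45B did not. DNMT3A ranged from −0.12 (without high altitude library 1) to 0.62 with libraries left out, and OGT, at −0.05, was at 0.020 with a common total and between −0.27 and 0.12 with libraries left out. With libraries left out, the difference in mean share, low minus high altitude, ranged from −4.46 to 4.08 percentage points for DNMT1, −4.39 to 4.35 for DNMT3A, 0.113 to 1.13 for DNMT3B and −7.46 to 0.944 for TET3. As a difference of log2(FPKM + 1) from the other methyltransferases, DNMT1 gave 0.043 and DNMT3B −0.15, the opposite sign to their shares. On this scale, which compresses changes of weakly expressed genes, the log2 fold change was 0.09 for DNMT3B, 0.22 for DNMT1 and 0.26 for DNMT3A. Their ratios of mean FPKM, low over high altitude, were 1.46, 1.26 and 1.13. The cause of the other turns was not tested. The groups share replicate numbers, but deviations of same-numbered libraries correlated at −0.02, 0.09 and −0.14. Differently numbered libraries correlated at −0.15 to 0.16, the highest being low altitude library 3 with high altitude library 1. These values gave no sign of pairing by number, though 3 libraries per group cannot exclude a weak one. With the replicate block, 0 members and 19 of all genes passed, and GADD45B had an adjusted p of 0.145 (limma, Benjamini-Hochberg). At this depth TET1, TET3, DNMT3B and UHRF1 did not reach an FPKM of 1 in 3 libraries.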
